A study of Mus musculus with 39 samples.

Results

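The Notch pathway genes described here are 10 genes of the signalling pathway: the receptors Notch1 and Notch2, the ligands Dll1, Dll3 and Jag1, the glycosyltransferase Mfng, the DNA-binding mediator Rbpj and the target-family genes Hes1, Hes5 and Hes6. They were chosen by name from the 53379 genes in the count tables and not by a measured value, but with earlier results of these data known. The RNA-seq libraries came from pools of fluorescent cells, sorted from dissected neocortex on embryonic day 13 (E13) or 16 (E16). Every embryo carried Emx1-Cre, which acts in the dorsal telencephalic lineage, and MADM (Mosaic Analysis with Double Markers) cassettes on chromosome 7 (MADM-7-GT and MADM-7-TG). The strain is labelled CD1, and the breeding notes give a mixed C57BL/6J, CD1 background. Red and green cells had uniparental disomy (UPD) of chromosome 7, with both copies from the father in one colour and from the mother in the other, whereas yellow cells kept 1 copy of each.

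A replicate number stands for 1 embryo, sorted into red, green and yellow cells, with no other treatment. No group carries a deletion, and yellow cells of the same embryo are the control. Of 39 libraries, 36 had at least 40% uniquely aligned reads and were used: 5 of each colour at E13 and 7 of each colour at E16. Paternal UPD (patUPD) was taken as red in replicates 1 to 3 and green from replicate 4 on, and maternal UPD (matUPD) as the other colour, which follows the study's sample sheet and not the sample labels. Cdkn1c, the maternally expressed gene by which this assignment can be checked, was lower in the patUPD than in the matUPD library in 12 of 12 embryos with both.

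In the Notch pathway a ligand on one cell binds a receptor on its neighbour, the receptor is cleaved, and its intracellular part joins RBPJ in the nucleus to switch on genes such as Hes1 and Hes5. HES1 and HES5 are repressors of proneural genes and keep radial glia, the progenitors of the cortex, from differentiating. DLL1 and JAG1 activate receptors on neighbouring cells, DLL3 acts mainly within its own cell as an inhibitor of the pathway, MFNG adds sugars to the receptor that shift its response to ligands, and HES6 opposes HES1. Newly formed neurons and intermediate progenitors are known as a source of DLL1 in this tissue.

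Gene counts per library ran from 472924 to 5205788, so that 3 counts, used as the floor of a library, were worth 0.576 to 6.34 counts per 1000000 (CPM). This limit covers counting error only, since the reads carry no molecular identifiers. The libraries detected 7858 to 13768 genes. Among libraries that stood apart, E13 yellow replicate 2, E16 yellow replicate 5 and E16 green replicate 7 held at least 50 counts of Xist and at least 50 of Y-linked genes. E16 red replicate 5 had 18.5% of its uniquely aligned reads ambiguous between genes, against 3.30% to 10.8% (median 4.45%) in the other 35 libraries, and E16 yellow replicate 7 had the 7858 genes. Projection neuron markers were high in all groups, and microglial markers were at 0 in the median library of 5 of the 6 groups, E13 yellow being the exception.

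Where RBPJ acts, the DNA is known to carry the core GTGGGAA, and the Hes5 promoter is the member promoter in which these letters were found. RefSeq promoters (GRCm38.p6) were matched for 8 of the 10 members by symbol, in 11 windows. Hes1 and Mfng were not matched. The 250 bases before each start were searched for GTGGGAA on both strands, so that TTCCCAC on the printed strand is the same match read backwards. Hes5 is shown for its matches, and the second Dll1 start for contrast, because Dll1 lies next to a gene on the opposite strand that bears on its count. Capitals mark the matches.
Hes5, chr4:154960673-154960922, plus strand: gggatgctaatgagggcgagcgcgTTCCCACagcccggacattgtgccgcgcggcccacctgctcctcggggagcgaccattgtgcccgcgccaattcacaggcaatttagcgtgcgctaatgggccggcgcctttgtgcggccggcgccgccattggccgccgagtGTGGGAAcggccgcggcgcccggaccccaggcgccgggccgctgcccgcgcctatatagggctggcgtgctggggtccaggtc
Dll1, chr17:15376933-15377182, minus strand: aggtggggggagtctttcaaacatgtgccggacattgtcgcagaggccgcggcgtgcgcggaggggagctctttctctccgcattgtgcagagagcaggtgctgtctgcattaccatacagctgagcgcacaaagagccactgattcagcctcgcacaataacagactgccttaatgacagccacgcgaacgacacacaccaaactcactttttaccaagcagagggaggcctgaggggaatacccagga

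The Hes5 window held 2 matches, at -226 to -220 (TTCCCAC) and at -83 to -77 (GTGGGAA), with -1 the base just before the start. The other 10 member windows held none, which says only that these letters are not in those 250 bases. Of 32851 promoter windows of this length, 5.42% held the letters at least once and 0.161% at least 2 times. A match is a description of the sequence and not a site of binding.

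Some members share exonic bases with other genes, and the unstranded counts used here leave out a read that falls on exons of 2 genes. Notch1 (ENSMUSG00000026923.15, minus strand of chromosome 2, GRCm38 start 26457903, end 26516663) shares 9.76% of its exonic bases with the noncoding genes 0610009E02Rik and Gm13568 on the opposite strand. Dll1 (ENSMUSG00000014773.13, minus strand of chromosome 17, start 15367354, end 15376872) shares 20.5% with A930024N18Rik. Hes5 (ENSMUSG00000048001.7, plus strand of chromosome 4, start 154960923, end 154962371) shares 31.8% with Gm20421. Notch2 shares 5.02% with Gm42820, and Dll3, Jag1, Hes1, Hes6, Mfng and Rbpj share none. The tables also give counts for each strand. Because the libraries keep no strand, the sum of the 2 stranded columns gives each read on a shared stretch once to each gene, and reads of a gene and its antisense partner cannot be told apart there. Over the 36 libraries that sum was 2.70 times the unstranded count for Hes5, 1.24 times for Notch1 and 1.12 times for Dll1, and 1.00 times for the other 7 members.

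Per kilobase of exons, Hes6 had the highest level of the 10 and, in the unstranded column, Hes5 the lowest. The place of Hes5 at E13 rested on that column, since with the stranded sum its mean there was 3.98 ± 10.4 CPM per kilobase (SD, n = 15), above Jag1 with 2.34 ± 3.04 and Notch2 with 1.52 ± 1.30. At E13 the mean level over the 15 libraries, in CPM per kilobase, was 248.8 ± 132 (SD) for Hes6, 66.6 ± 29.2 for Hes1, 29.3 ± 24.8 for Mfng, 14.7 ± 4.58 for Dll1, 13.9 ± 11.1 for Dll3, 10.8 ± 11.02 for Notch1, 5.71 ± 3.00 for Rbpj, 2.57 ± 3.43 for Jag1, 1.65 ± 1.41 for Notch2 and 1.51 ± 3.19 for Hes5. From Mfng down, each gene in that order differed from the next by less than the larger of their SDs. At E16, over 21 libraries, Hes6 again came first with 167 ± 111, followed by Hes1 with 13.2 ± 9.46, Dll3 with 9.22 ± 7.42, Mfng with 8.93 ± 9.54 and Notch1 with 6.41 ± 26.2. Below them at E16 lay Rbpj with 3.59 ± 2.30, Dll1 with 3.19 ± 4.03, Notch2 with 2.01 ± 2.95, Jag1 with 0.621 ± 0.930 and Hes5 with 0.118 ± 0.303, in CPM per kilobase. From Hes1 down, neighbours in the E16 order again differed by less than the larger of their SDs. The value of Notch1 at E16 rested on E16 red replicate 5, since its median over the 21 libraries was 0.252 CPM per kilobase. The plot of CPM by library shows the 10 genes in the 36 libraries.

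**Figure D1:**
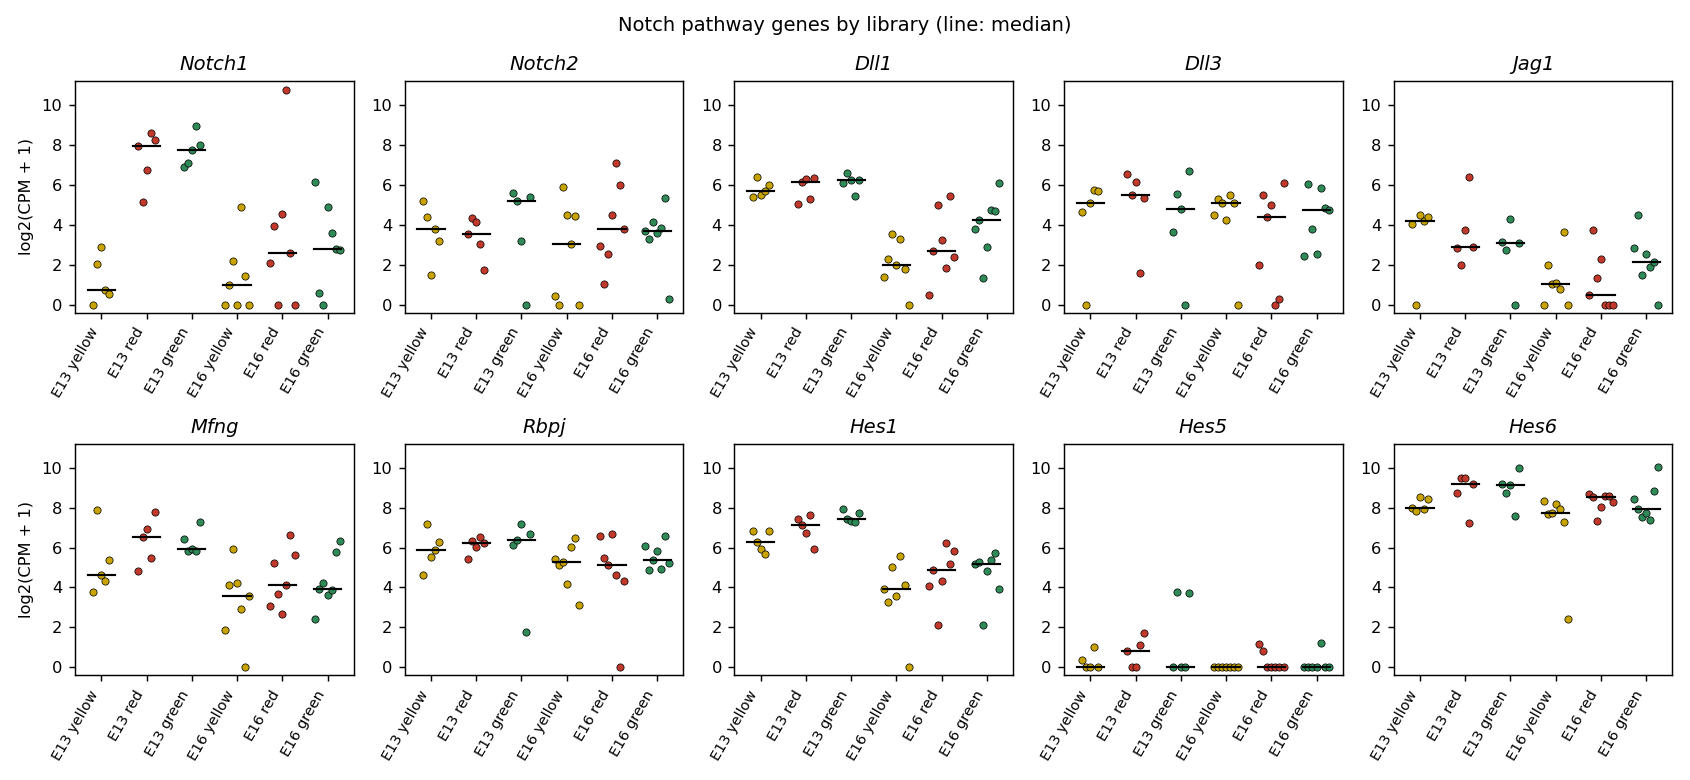
Level of each of the 10 genes, as log2(CPM + 1), in each of the 36 libraries, by age and colour. Each point is 1 library and each line the median of a group (5 libraries at E13, 7 at E16). Hes6 is high in nearly every library, Hes5 is at or near 0 except in 2 green libraries at E13 (12.9 and 12.4 CPM), Hes1 and Dll1 lie lower at E16, and Notch1 at E13 is low in yellow libraries (at most 6.47 CPM) and high in red and green (at least 34.1 CPM).

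E16 was compared with E13 in the sums of each embryo's libraries, which gave 6 embryos at E13 and 7 at E16. Hes1 fell, and it was the only one of the 10 members past the threshold (edgeR adjusted p under 0.05). Of 13776 genes tested, 3.80% passed in either direction and 1.88% were lower at E16, so 1 of 10 members has to be read against that background. The median log2 fold change was -1.01 over the 10 members and 0.03 over all genes tested, and 9 of the 10 estimates were negative. In bulk samples, fewer cells of a type and less RNA per cell cannot be told apart.

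Hes1, the repressor that Notch signalling switches on in radial glia, was at 50.4, 127 and 167 CPM (lowest, median and highest) in the 6 E13 embryos. At E16 its lowest, median and highest values in 7 embryos were 10.7, 19.5 and 53.5 CPM. Of the 7 E16 embryos, 6 lay below every E13 embryo, and the exception, replicate 5 at 53.5 CPM, lay above only E13 replicate 5, whose sum is a single yellow library. The means were 121 ± 38.4 CPM (SD, n = 6) and 25.3 ± 15.3 CPM (SD, n = 7), and the log2 fold change was -2.09 (SE 0.41, adjusted p = 0.00866, edgeR). Leaving out each embryo in turn gave -2.42 to -1.96 with adjusted p from 0.00253 to 0.0244.

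Dll1, the activating ligand, was at 41.7, 61.5 and 84.3 CPM (lowest, median, highest) at E13 and at 3.81, 12.9 and 40.6 CPM at E16. Every E16 embryo lay below every E13 embryo, which was so for 1.88% of the genes tested. Its log2 difference was -1.77 (SE 0.48) with an adjusted p of 0.0521 by edgeR, just short of the threshold. It passed in 4 of 9 other settings and without 1 of the 13 embryos. With the DESeq2 Wald test the adjusted p was 0.00454 (log2 -1.80), and without E16 replicate 7 it was 0.00740 (log2 -2.23, edgeR). With the stranded sum, an alternative chosen after seeing the data, it was 0.0360 (log2 -1.90, edgeR). With the study's 32 libraries it was 0.106, with the embryos that kept 3 libraries 0.117, and without each of the other 12 embryos 0.0621 to 0.0927 (edgeR). That embryo had the 40.6 CPM, and its green library, at 68.3 CPM, was one of the 3 with both sex signals.

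The other ligands gave less certain differences. Jag1 was at 3.12, 12.6 and 36.6 CPM (lowest, median, highest) at E13 and at 0, 1.55 and 15.3 CPM at E16 (log2 -1.86, SE 0.95, adjusted p = 0.302, edgeR), and 5 of the 7 E16 embryos lay below every E13 embryo. Dll3, the ligand that inhibits in its own cell, was at 14.9, 51.0 and 63.5 CPM at E13 and 11.3, 20.9 and 52.5 CPM at E16 (log2 -0.66, SE 0.43, adjusted p = 0.434, edgeR). The ranges of Jag1 and Dll3 overlapped.

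Mfng was at 19.3, 73.5 and 137 CPM at E13 and at 4.65, 24.1 and 54.4 CPM at E16 (log2 -1.36, SE 0.57, adjusted p = 0.187, edgeR). Rbpj was at 41.4, 69.6 and 100.2 CPM at E13 and at 25.5, 37.3 and 65.1 CPM at E16 (log2 -0.42, SE 0.31, adjusted p = 0.502, edgeR). Hes6, the antagonist of Hes1, was at 239, 419 and 676 CPM at E13 and at 182, 293 and 640 CPM at E16 (log2 -0.23, SE 0.30, adjusted p = 0.747, edgeR). All 3 genes had overlapping ranges. Hes5 was at 0, 0.722 and 5.36 CPM at E13 and at most 0.502 CPM at E16 (adjusted p = 0.276, edgeR), close to or under the level of 3 counts in most libraries, and no fold is given for it.

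The receptors gave no called age difference. Notch2 was at 3.23, 15.6 and 27.7 CPM at E13 and at 0.950, 20.5 and 54.8 CPM at E16 (log2 0.50, SE 0.75, adjusted p = 0.780, edgeR). Notch1 was at 0.677, 129.8 and 248.9 CPM at E13 and at 0.944, 6.60 and 609 CPM at E16 (log2 -0.23, SE 1.24, adjusted p = 0.947, edgeR). The 0.677 CPM is E13 replicate 5, whose sum is a single yellow library, and the next lowest E13 embryo was at 67.2 CPM. The 609 CPM is E16 replicate 5, and the next highest E16 embryo was at 16.9 CPM. Without that embryo the log2 difference was -3.92 with an adjusted p of 0.0265, and with the 32 libraries that the study used, which leave out its red library among others, it was -3.71 with an adjusted p of 0.0133. The call on Notch1 thus turned on this embryo, whose red library held 5946 of its 6066 reads and had the 18.5% of ambiguous reads.

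**Figure D2:**
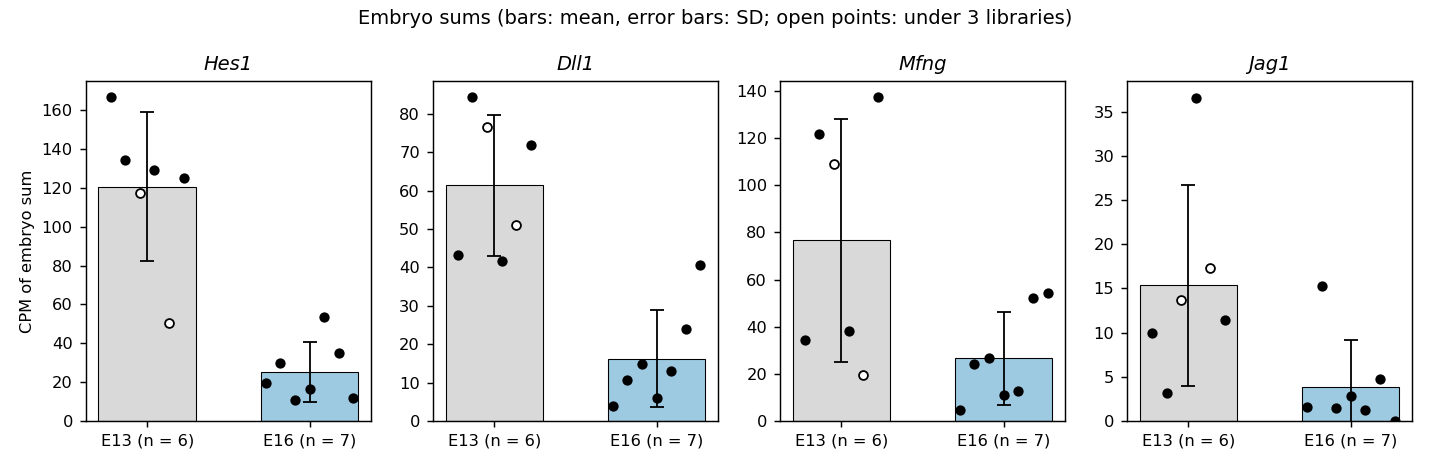
CPM of each embryo's summed libraries for Hes1, Dll1, Mfng and Jag1 at E13 (6 embryos) and E16 (7 embryos). Bars are means, error bars SD (drawn down to 0 at the lowest) and points embryos, with open points for the embryos with under 3 libraries. For Dll1 no E16 embryo (highest 40.6 CPM) reaches an E13 embryo (lowest 41.7 CPM), and for Hes1 a single E16 embryo, at 53.5 CPM, lies above the lowest E13 embryo, at 50.4 CPM.

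Of 46 other genes of the pathway, 39 were tested in the same sums, 2 fell and 1 rose. These counts have to be read against all 13776 genes tested, of which 3.80% passed in either direction and 1.88% were lower at E16. Mib1, the ubiquitin ligase that lets ligands be taken up and so activate, fell from 169.6 ± 44.7 CPM (SD, n = 6) to 59.9 ± 18.7 CPM (SD, n = 7), a log2 change of -1.36 (SE 0.25, adjusted p = 0.00576, edgeR), with an adjusted p of 0.0523 in 1 other setting, the study's 32 libraries. Dner, a noncanonical ligand of neurons, fell from 198 ± 72.5 to 86.8 ± 17.9 CPM, a log2 change of -1.04 (SE 0.26, adjusted p = 0.0358, edgeR), and lost the call without 10 of the 13 embryos in turn, with adjusted p up to 0.0735. Bend6, known as a corepressor that binds RBPJ, rose from 11.8 ± 3.55 to 60.8 ± 41.8 CPM, a log2 change of 2.51 (SE 0.47, adjusted p = 0.00623, edgeR). The Hes1 relatives Hey1 and Hey2 had log2 differences of -1.72 and -2.81 and did not pass (adjusted p = 0.119 and 0.252, edgeR), although Hey1 did with the DESeq2 Wald test (adjusted p = 0.0376). Of the 9 genes of the receptor-cleaving proteases 8 were tested, and none of the 8 passed.

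Markers of cell types moved over the same sums. Of 9 tested radial glia markers, 7 fell (Pax6, Sox2, Vim, Nes, Mki67, Id4 and Sox9), against 1.88% of all genes tested. The other 2 went the opposite way, with positive estimates that had an unadjusted p under 0.05 (edgeR) but did not pass. The summed level of the 10 listed radial glia markers ran from 1902 to 3025 CPM at E13 and from 819.8 to 2915 CPM at E16. Among the projection neuron markers, Tubb3, Dcx and Neurod6 rose and Tbr1 fell, and the summed level of the list was 6268 to 11525 CPM at E13 and 8015 to 12073 CPM at E16. Of 7 tested intermediate progenitor markers, Gadd45g fell, and their sums ran from 937.8 to 1630.1 CPM at E13 and from 299 to 828 CPM at E16, without overlap. The sums of interneuron markers were 18.1 to 141 CPM at E13 and 0.136 to 13.9 CPM at E16, also without overlap. The summed markers of erythroid cells, which are no cortical cells, were very uneven, at 0.677 to 35352 CPM in the E13 embryos and 4.72 to 2113 CPM in the E16 embryos, and 1 of the 5 tested, Hbb-y, fell. The part of these shifts in the fall of Hes1 was not tested.

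In yellow cells alone, 5 libraries at E13 and 7 at E16, no member passed. Of 11378 genes tested, 17 (0.149%) passed. Of the 9 members tested, 2 had an unadjusted p under 0.05 (edgeR), and the DESeq2 Wald test called 1, Dll1. Over all 11378 genes, 989 had an unadjusted p under 0.05 and the DESeq2 Wald test called 195. Dll1 was at 41.6, 44.4, 51.1, 62.5 and 82.4 CPM in the 5 E13 yellow libraries and at 0, 2.91 and 10.7 CPM (lowest, median, highest) in the 7 at E16. Its log2 difference in yellow cells was -3.66 (SE 0.92, adjusted p = 0.171, edgeR), and without E16 replicate 7, where Dll1 was at 0, the adjusted p was 0.0460. The estimated fall of Dll1 was smaller in red cells (log2 -1.94, adjusted p = 0.456) and in green cells (log2 -1.59, adjusted p = 0.293), both by edgeR. Tested directly, the age change in red and green against yellow cells differed by 1.87 on the log2 scale (SE 1.27). That difference did not pass (unadjusted p = 0.151, edgeR).

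Hes1 in yellow cells was at 50.4, 60.1, 77.0, 114 and 115 CPM at E13 and at 0, 14.1 and 46.2 CPM (lowest, median, highest) at E16. Its log2 difference was -2.17 (SE 0.85, adjusted p = 0.383, edgeR). In red cells the log2 difference was -1.85 (adjusted p = 0.271) and in green cells -2.60 (adjusted p = 0.0228), both by edgeR, so the estimate had the same sign in the 3 colours and passed in green cells.

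The next comparison was between singly coloured cells, which arise when recombination is followed by a division that separates the markers, and yellow cells of the same embryos. At E13 only 4 embryos had both kinds among the libraries used. Embryo 3 had no yellow library and embryo 5 no red or green one, so neither gives a within-embryo difference, although their libraries are in the levels below. At E13 Notch1 stood out. It was at 0, 0.465, 0.677, 3.10 and 6.47 CPM in the 5 yellow libraries. In red libraries it was at 34.1, 107, 249.9, 307 and 380.1 CPM, and in green libraries at 119, 137, 211, 255 and 491 CPM. Every singly coloured library was above every yellow library, which was so for 0.365% of the 11786 genes tested. The log2 difference was 6.75 (SE 1.05) with the smallest unadjusted p of all genes, 2.42e-05, and an adjusted p of 0.117 (edgeR), which misses the threshold.

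No gene passed that comparison (0% of 11786; edgeR), with 801 genes at an unadjusted p under 0.05 and 562 genes called by the DESeq2 Wald test, Notch1 among them. The call on Notch1 turned on the libraries, the filter and the block. Without the libraries with signals of both sexes, which takes out E13 yellow replicate 2, the log2 difference was 7.67 (adjusted p = 0.0282). Without embryo 2 as a whole it was 7.66 (adjusted p = 0.0353), whereas without each of the other 5 embryos the adjusted p was 0.115 to 0.896. Without the low-count filter it was 6.77 (adjusted p = 1.06e-05), without the replicate block 6.64 (adjusted p = 0.0110), and with the cross direction as the block 6.80 (adjusted p = 0.00431), each by edgeR.

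How reads were counted also changed the Notch1 difference. In the E13 yellow libraries 44 reads were counted for Notch1 in the unstranded column and 822 in the sum of the stranded columns, so 94.6% of that sum lay where Notch1 shares bases with its antisense neighbours. In the 10 red and green libraries the counts were 7627 and 9085, and the share was 16.05%. With the stranded sum, an alternative chosen after seeing the data, Notch1 was at 7.19, 28.0 and 109 CPM (lowest, median, highest) in yellow libraries and at 72.7, 239 and 439 CPM in singly coloured ones. The sets then overlapped at embryo 2, whose yellow library was at 109 CPM and whose red library was at 72.7 CPM, and the log2 difference was 2.69 (SE 0.74, adjusted p = 0.417, edgeR). The direction was the same under both counts.

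**Figure D3:**
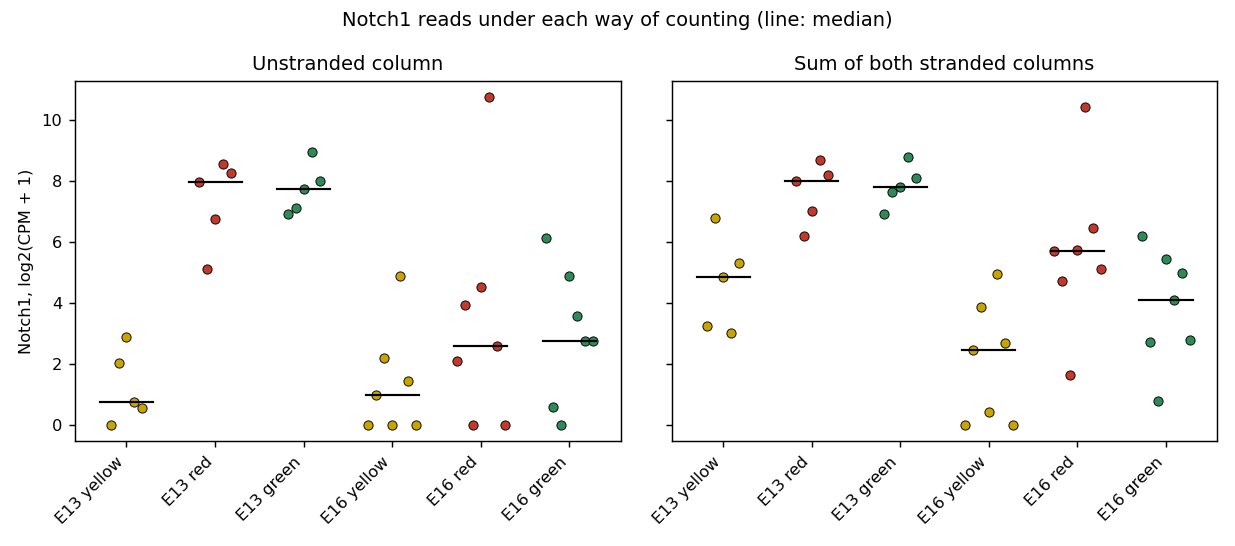
Notch1 level, as log2(CPM + 1), in the 36 libraries, from the unstranded column (left) and from the sum of both stranded columns (right), by age and colour. Points are libraries and lines are medians. The E13 yellow libraries reach 6.47 CPM on the left and 109 CPM on the right, while the lowest red or green library at E13 goes from 34.1 to 72.7 CPM and the highest from 491 to 439 CPM, and E16 red replicate 5 is above all others in both.

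Marker levels also differed between yellow and singly coloured libraries at E13, although none of the markers passed the test. The summed projection neuron markers ran from 9177 to 11525 CPM in yellow libraries and from 3853 to 7244 CPM in singly coloured ones, without overlap. The summed radial glia markers ran from 1031 to 2166 CPM in yellow libraries and from 2145 to 4044 CPM in singly coloured ones, so that they overlapped. The summed Cajal-Retzius markers ran from 215 to 595 CPM (median 547) in yellow and from 26.3 to 686 CPM (median 104) in singly coloured libraries. The summed microglial markers ran from 0 to 180.2 CPM (median 33.3) in yellow libraries and from 0 to 17.8 CPM (median 0) in singly coloured ones, and P2ry12 and C1qa were at 0 in every yellow library. The part of this makeup in the Notch1 difference was not tested. The other members gave smaller differences, none past the threshold. Hes1 was at 50.4, 77.0 and 115 CPM (lowest, median, highest) in yellow and 59.1, 166 and 246 CPM in singly coloured libraries (log2 0.85, SE 0.45, adjusted p = 0.739, edgeR). For Dll1 the log2 difference was 0.04 (SE 0.51).

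Hes5 at E13 was found in few libraries. It had 67 reads in green replicate 2 and 49 in green replicate 6 (12.9 and 12.4 CPM), 10 in red replicate 6, and at most 4 in the other 12 E13 libraries. Hes5 had 5 reads at most in any of the 21 E16 libraries and was at 0 in 18 of them. The stranded sum added 248 reads to Hes5 in the E13 green libraries and took its highest level to 51.5 CPM. The promoter printed above, with 2 copies of the RBPJ letters, thus belongs to a gene whose reads were above 3 in only 5 of 36 libraries in the unstranded column.

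At E16 no gene passed between singly coloured and yellow cells (0% of 10794; edgeR, 258 at an unadjusted p under 0.05, 73 with the DESeq2 Wald test), and no member did with either tool. Notch1 was at 0, 0.969 and 28.8 CPM (lowest, median, highest) in yellow and 0, 5.78 and 1715 CPM in the 14 singly coloured libraries (log2 3.22, SE 1.66, adjusted p = 1, edgeR). Dll1 was at 0, 2.91 and 10.7 CPM in yellow and 0.413, 10.7 and 68.3 CPM in singly coloured libraries (log2 1.91, SE 1.16). The sets overlapped for both genes. The change of the coloured-yellow difference from E13 to E16 was -3.60 for Notch1 on the log2 scale (SE 2.07, adjusted p = 1, edgeR), and with the stranded sum its sign turned, to 0.89 (SE 1.58). None of the 9 members tested passed. Of 11472 genes in that fit, 1 (0.00872%) passed.

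The last comparison was between the directions of disomy, within embryos. Dll3 is the member on chromosome 7 itself (ENSMUSG00000003436.11, minus strand, start 28293553, end 28302238), so both its copies come from 1 parent in the UPD cells. At E13 it was at 0, 43.7, 70.3, 91.8 and 104 CPM in the 5 patUPD libraries and at 2.05, 11.4, 27.1, 39.7 and 45.5 CPM in the 5 matUPD libraries. It was higher with patUPD in 3 of 5 embryos, and the log2 difference was 1.27 (SE 1.47, adjusted p = 1, edgeR). At E16 it was at 2.89, 25.3 and 57.1 CPM with patUPD and 0, 12.7 and 67.7 CPM with matUPD (lowest, median, highest), with a log2 difference of 0.12 (SE 1.36). Dll3 ranged from 0 to 67.7 CPM at E16 and to 104 CPM at E13, lay higher with either disomy depending on the embryo, and its disomy difference was smaller than its SE at both ages.

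No member passed at either age. At E13 no gene passed (0% of 11786; edgeR, 264 at an unadjusted p under 0.05, 202 with the DESeq2 Wald test), and none of the 9 members had an unadjusted p under 0.05. At E16, 3 genes passed (0.0278% of 10794), and 1 of 9 members had an unadjusted p under 0.05, against 249 of all 10794 genes. That member was Notch2. It was at 0.230, 6.62 and 39.1 CPM (lowest, median, highest) in the 7 patUPD libraries and at 8.64, 16.6 and 137 CPM in the 7 matUPD libraries. It was lower with patUPD in 7 of 7 embryos, which was so for 0.398% of the genes tested, and the log2 difference was -2.57 (SE 1.15, unadjusted p = 0.0366, adjusted p = 1, edgeR). The same embryo pairs included libraries with 1 and 4 reads of Notch2. At E13 Notch2 was lower with patUPD in 3 of 5 embryos (log2 -0.33, SE 1.54).

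For Hes1 the disomy difference was -0.04 (SE 0.45) at E13 and -0.67 (SE 0.94) at E16, and for Hes6 0.43 (SE 0.40) and 0.22 (SE 0.61), all on the log2 scale. An interval of 2 SE around the E13 value of Hes1 still holds changes of nearly 1 on that scale in either direction. The change of the disomy difference from E13 to E16 passed for none of the 9 members and for 0% of the 11472 genes tested (edgeR; 291 genes at an unadjusted p under 0.05, 207 with the DESeq2 Wald test). The widest of these changes was that of Notch2, -2.27 on the log2 scale (SE 1.89).

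**Figure D4:**
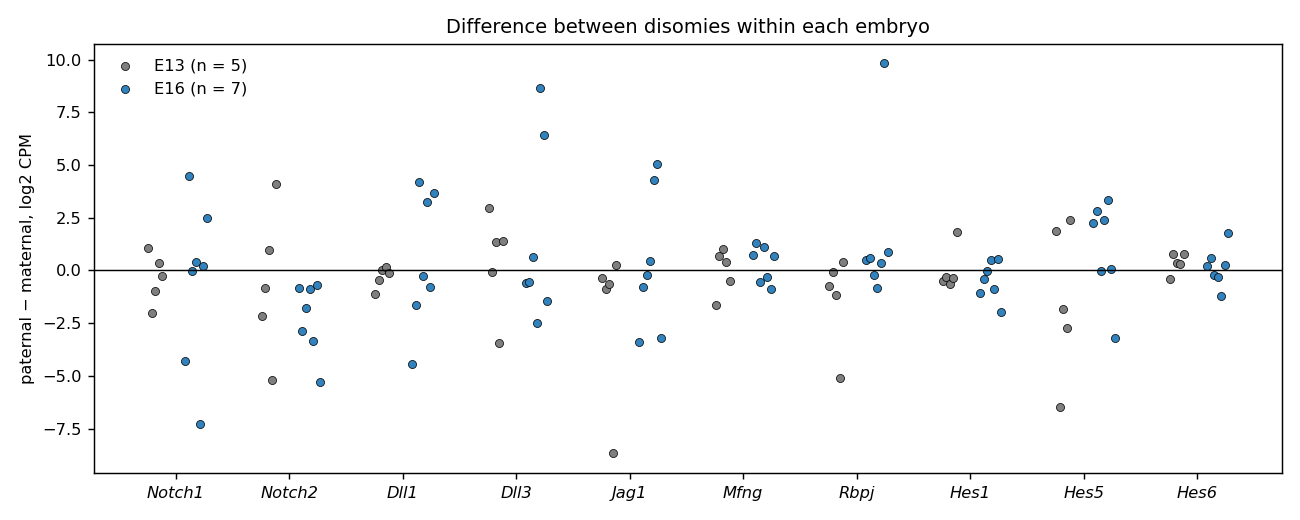
Difference between the patUPD and the matUPD library of each embryo, in log2 CPM (0.5 counts added), for the 10 genes at E13 (5 embryos, grey) and E16 (7 embryos, blue). Each point is 1 embryo. For Notch2 at E16 all 7 points lie below 0, between -5.32 and -0.68. Points lie on both sides of 0 for the other genes and ages, but for Hes5 at E16 those below 0 are pairs with no read in either library, which differ by library size alone. So are the Hes5 points above 0 of E16 embryos 4 (2.39) and 6 (0.08). The same holds for embryo 3 in Hes5 at E13 and in Notch1 at E16, and for embryo 7 in Jag1 at E16.

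**Figure D5:**
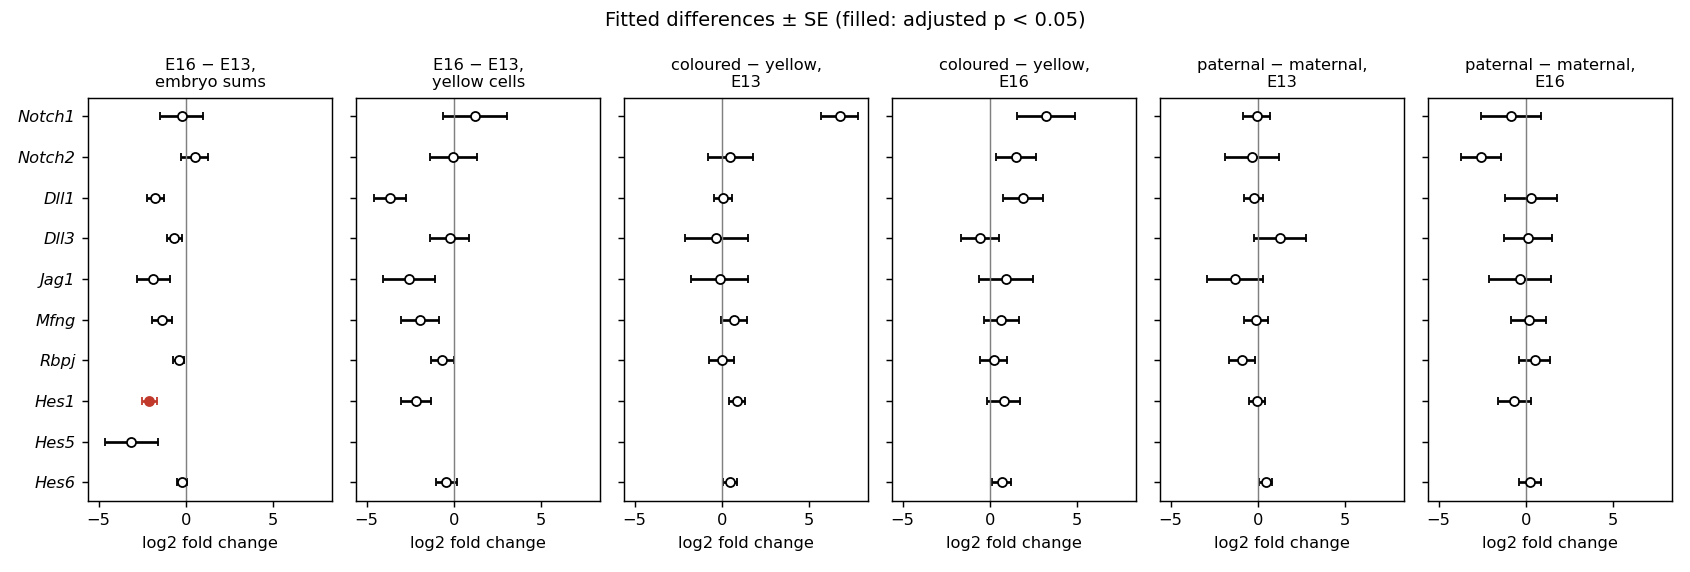
Fitted log2 fold changes (edgeR), with standard errors derived from the test statistic, for the members in the age, coloured and disomy comparisons. Filled points passed an adjusted p of 0.05. Hes1 in the embryo sums is the 1 filled point, and Notch1 at E13 between singly coloured and yellow cells, at 6.75, is the farthest from 0. Hes5 was tested in the embryo sums alone.

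Across the 36 libraries, which mix both ages and all colours, the member pairs with the highest Spearman correlation of log2 CPM were Dll1 with Mfng (0.75), Dll1 with Hes1 (0.72) and Notch1 with Hes1 (0.66). Notch2 was the least like the others, with coefficients from -0.01 to 0.31. Among 11472 genes, the gene most like Hes1 was Mcm2, a subunit of the replicative helicase (0.85), followed by Zfp36l1 (0.85) and Grb10 (0.84). The gene most like Notch1 was Tuba1b (0.84), that most like Dll1 was Stip1 (0.81), and Dll1 itself came after Ddr1 and Gm5855 for Mfng. Hes6 was closest to Tubg1 (0.78), Jag1 to Tnfaip8 (0.77), Dll3 to Kbtbd4 (0.75), Rbpj to Pfkl (0.72) and Notch2 to Tars (0.67). With the summed radial glia markers the coefficient was 0.54 for Notch1, 0.47 for Hes1 and -0.06 for Notch2. These coefficients are descriptions over libraries that differ in age, colour and depth.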

How the data were processed

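Smart-Seq2 libraries, which carry neither strand nor molecular identifiers, were made from 200 to 400 sorted cells. The authors aligned reads with STAR 2.5.0c to GRCm38 with the Gencode M16 annotation, keeping reads with a single alignment, and deposited whole-number read counts per gene, in 1 unstranded column (used here) and 2 stranded columns (holding 54.6% and 53.0% of it in the median library), not normalised. SAMtools 1.8 and bedtools 2.26.0 are named in the submitters' processing notes. Symbols and coordinates are from Gencode M21 of the same build, with which 53274 of 53379 identifiers matched.

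The parental direction of each colour is not in the labels and follows the replicate number, as in the study's sample sheet, except that the sheet lists E16 yellow replicate 3 under the other cross than its number implies. Libraries with under 40% uniquely aligned reads (3 of 39) were left out. Genes with a mean count of 10 or more entered the quasi-likelihood test of edgeR 4.0.16 (R 4.3.3, TMM normalisation, Benjamini-Hochberg over all genes tested, threshold 0.05). Within an age the embryo was a block. The ages were compared between embryos, without a block, in yellow libraries and in embryo sums, and 1 E13 sum held 2 libraries and 1 a single library. The change with age was an interaction. The SE of a log2 difference was derived from the edgeR test, as the absolute log2 difference divided by the square root of its F statistic. DESeq2 1.42.0 was an alternative. Simulated counts with known changes were used only to check that the median fitted change had the right sign. They held no differences between embryos, and no limit was set on false calls.

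Same-numbered libraries come from single individuals per the labels. Their deviations from the group means, over 11472 genes, had a median correlation of 0.048 at E13 (13 pairs) and 0.030 at E16 (21 pairs), against -0.0082 and 0.00025 between different numbers. P-values of the age comparisons measure the spread between embryos. In the coloured and disomy comparisons and their change with age, the embryo was a block. Those p-values measure the spread left between libraries within embryos.

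The members, lists and rules for named genes were chosen with earlier results of these data known. The rule names the 10 members throughout, at most 3 higher and 3 lower other pathway genes past the threshold, the 3 genes most alike to each member by Spearman correlation, listed markers and Cdkn1c. Other genes (Hey1, Hey2 and antisense neighbours) were named after their values were seen. A result for 1 listed marker is not reported here.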

Additional observations from a re-analysis of the deposited data

Results flagged for a closer look

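A library or embryo was singled out where its gap to the nearest other of its group took up most of the group's range (Dixon's 95% value). Of 85 groups of 5 to 7 values tested, 20 had such a value, where chance gives about 1 in 20 groups, and CPM of genes with few reads are skewed.

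Notch1 was at 1715 CPM in E16 red replicate 5, against 22.1 CPM in the next red library, which put that embryo's sum at 609 CPM against 16.9 CPM in the next. The same library had 18.5% of uniquely aligned reads ambiguous, against 4.62% in the nearest. Notch1 was also high in E16 green replicate 1 (69.2 CPM, next 28.6 CPM) and E16 yellow replicate 5 (28.8 CPM, next 3.58 CPM).

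Notch2 was at 39.1 CPM in E16 green replicate 6 (next 16.6 CPM) and at 58.7 CPM in E16 yellow replicate 3 (next 21.5 CPM). Dll1 was at 68.3 CPM in E16 green replicate 7 (next 25.6 CPM). In the same library Hes6 was at 1049 CPM (next 453 CPM), and the sum of its embryo was at 639.6 CPM (next 355 CPM).

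Jag1 was at 82.4 CPM in E13 red replicate 4 (next 12.1 CPM) and at 0 CPM in E13 yellow replicate 2, where the nearest yellow library was at 15.4 CPM. At E16 it was at 12.4 CPM in red replicate 2 (next 3.93 CPM), 21.5 CPM in green replicate 2 (next 6.18 CPM), 11.6 CPM in yellow replicate 6 (next 2.91 CPM) and 15.3 CPM in the sum of embryo 2 (next 4.73 CPM). The red and green libraries of E16 embryo 2 are thus both the highest of their group.

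Mfng was at 237 CPM in E13 yellow replicate 2 (next 40.2 CPM) and at 60.5 CPM in E16 yellow replicate 3 (next 17.8 CPM). Hes5 was at 1.02 CPM in E13 yellow replicate 5 (next 0.291 CPM) and at 1.33 CPM in E16 green replicate 5 (next 0 CPM), which are 3 and 5 reads. For no member did every embryo of E13 move one way and every embryo of E16 the other, between colours or between disomies.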

How the results depend on the processing

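Hes1 in the embryo sums kept its direction and its call in all 9 other settings (log2 -2.29 to -2.05) and without each embryo (-2.42 to -1.96). The number of members called there was 1, and 2 with DESeq2 size factors, with the DESeq2 Wald test, with the study's 32 libraries, without libraries with signals of both sexes and with the sum of both stranded columns (added after seeing the data). Without each embryo it was 1 to 2. The second was Dll1, except Notch1 with the study's 32 libraries and without E16 replicate 5. In yellow cells the number was 0, and 1 with the DESeq2 Wald test, with the study's 32 libraries and in green cells, and 0 to 1 without each embryo. Between singly coloured and yellow cells at E13 it was 0, and 1 (Notch1) with no low-count filter, the DESeq2 Wald test, the study's 32 libraries, without libraries with signals of both sexes, with no replicate block and with the cross direction as the block, and 0 to 1 without each embryo, the 1 being without E13 replicate 2. The other 5 comparisons had 0 members called in every setting run. The replicate block changed no other member's call.

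Without each embryo in turn, 19 of 57 fitted member differences, none of which passed in the main setting, took both signs: 2 in yellow cells, 1 in the sums, 5 and 1 between singly coloured and yellow cells at E13 and E16, and 4 and 6 between disomies at E13 and E16. Among these were Hes1 (-0.39 to 0.11) and Notch2 (-1.59 to 0.63) between disomies at E13 and Dll3 (-0.46 to 0.71) between disomies at E16. The sign also changed for Notch1 in the sums without libraries with signals of both sexes (0.19) and without each embryo (-3.92 to 0.092, the positive value without E13 replicate 4), for Notch2 in the sums with the study's 32 libraries (-0.31), and for the age change of Notch1 between singly coloured and yellow cells with the stranded sum (0.89). Mib1 lost its call in 1 of 9 other settings and Dner in 3. Over all genes, the number called in the sums was 524, and 1271 with the DESeq2 Wald test and 297 to 570 without each embryo; in yellow cells it was 17, and 9 to 195 in other settings and 1 to 31 without each embryo. The cause of these shifts was not tested. Leaving out each embryo was not run for the age changes of the coloured and disomy differences, and at E16 all libraries passed the 40% rule, so that setting has no separate value. Low counts were most frequent for Hes5, Jag1 and Notch1, with 3 counts or fewer in 31, 14 and 11 of the 36 libraries, followed by Dll3 with 6 and Notch2 with 5. The part of depth in these low counts was not tested.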
